A study of Saccharomyces cerevisiae with 4 samples.

Results

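The cell wall integrity pathway of budding yeast was examined through 10 of its signalling genes, WSC2, WSC3, MID2, RHO1, PKC1, BCK1, MKK1, MKK2, SLT2 and RLM1. They were taken by gene name from the deposited table of 7130 rows, and all 10 were found and measured. The study compared Saccharomyces cerevisiae Asr1-RING cells, in which the RING domain of the ubiquitin ligase Asr1 is mutated (2 libraries), with wild type (WT) cells (2 libraries). Both groups were grown in enriched medium to log phase, at an optical density near 0.8, and rRNA-depleted total RNA was sequenced. The sources used here do not give the residues changed in the mutant, the strain background, or whether libraries of one group were separate cultures or clones. All p-values therefore rest on a spread between libraries that may be only technical.

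Levels are FPKM, the number of fragments per kilobase of a transcript and per 1000000 fragments mapped. The lowest values fell on steps of 1 fragment, from which the depth was estimated, in units of 1000000 fragments, at 42.8 and 44.8 in Asr1-RING replicates 1 and 2 and at 47.3 and 40.8 in WT replicates 1 and 2. ASR1 itself had 4.99 and 5.39 FPKM in Asr1-RING, against 7.05 and 6.34 FPKM in WT (log2 difference -0.31, limma adjusted p = 0.157), values that cannot show a change within its coding sequence. All libraries had the transcripts of alpha cells, with the 4 alpha-specific genes at 337 to 4300 FPKM and the 7 a-specific genes at 2.4 to 67.2 FPKM.

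The pathway senses strain on the wall. Wsc-family proteins and Mid2 are sensors in the plasma membrane that report to the small GTPase Rho1, which activates the protein kinase Pkc1. Pkc1 turns on a MAP kinase cascade of Bck1, the redundant pair Mkk1 and Mkk2, and Slt2 (also called Mpk1), and Slt2 phosphorylates the transcription factor Rlm1, which drives genes of wall proteins and wall synthesis. Signal flow runs mostly through phosphorylation, so transcript levels describe the supply of the components and not the activity of the pathway.

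None of the 10 signalling genes passed the test of Asr1-RING against WT. On values of log2(FPKM + 1), limma with Benjamini-Hochberg adjustment over 6892 rows called 0 of 10 at an adjusted p under 0.05, where it called 6.83% of all tested rows (1.89% higher, 4.95% lower in Asr1-RING) and 2.87% of the rows of open reading frames (ORFs). Of the 341 rows called lower 60 were ORF rows, and of the 130 called higher 127 were. At an adjusted p under 0.1 it called RHO1 as higher and WSC2 and BCK1 as lower, where 6.51% of all rows were higher and 7.34% lower. No ORF share by direction was computed at this threshold or for the alternatives below. There, the share of all rows called lower may overstate that of ORF rows. At an unadjusted p under 0.05 there were 5 of the 10, against 26.4% of all tested rows and 23.0% of ORF rows. These were RHO1, MID2 and SLT2, with higher means in Asr1-RING, and WSC2 and BCK1, with lower means. Both Asr1-RING libraries lay above both WT libraries for 4 genes (33.0% of all tested rows) and below both for 3 (27.2% of rows), so that 7 of 10 did not overlap, near the 60.2% of all tested rows (58.5% of ORF rows) for which the same held. The 10 genes did not move in one direction: their log2 differences ran from -0.44 for BCK1 to 0.76 for SLT2, with a median of -0.07 beside 0.02 over all tested rows. In bulk libraries such as these, fewer cells with a transcript and less of it per cell cannot be told apart. The median size of the difference, without its sign, was 0.35 for the 10 genes and 0.16 over tested ORF rows. Gaps between libraries of one group were also larger for the 10 genes. Their median size was 0.21 in Asr1-RING and 0.15 in WT, beside 0.14 and 0.1 over tested ORF rows.

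**Figure D1:**
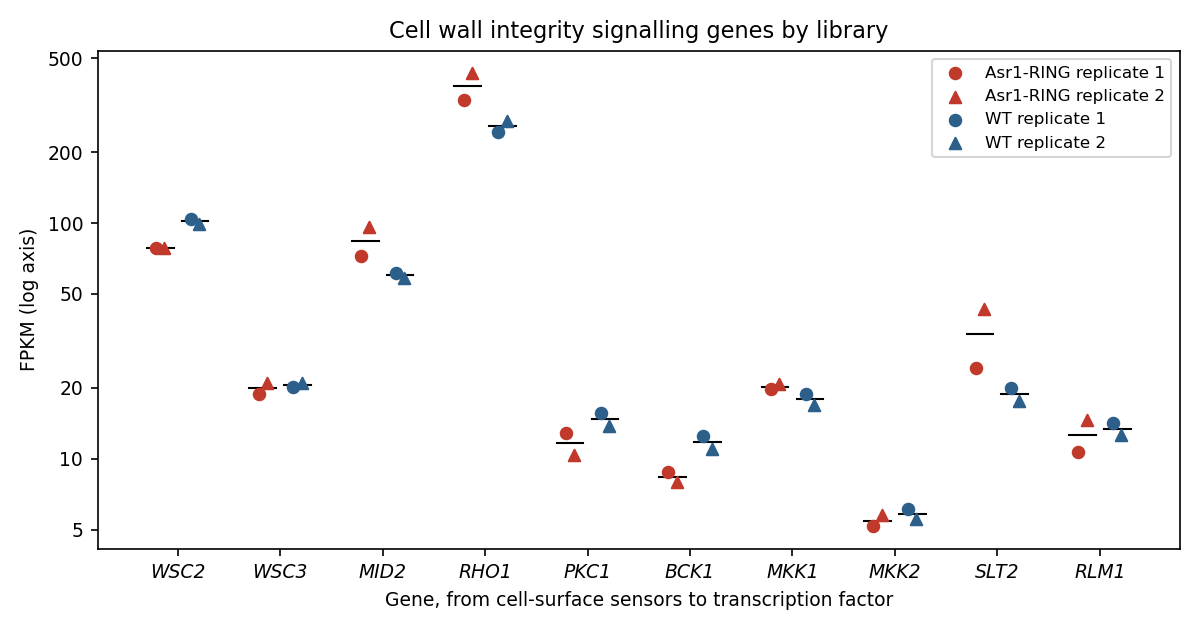
FPKM (log axis) of the 10 signalling genes in each library, ordered from sensors to transcription factor. Red points are Asr1-RING and blue points WT, circles replicate 1 and triangles replicate 2, and black bars the mean of 2 libraries. The spread between the Asr1-RING libraries is widest for SLT2, at 24.2 and 43.1 FPKM.

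The genes span a wide range of levels. By the mean over the 4 libraries, in FPKM and so per length, the order was RHO1 (320), WSC2 (89.9), MID2 (72.1), SLT2 (26.2), WSC3 (20.2), MKK1 (19.1), PKC1 (13.2), RLM1 (12.98), BCK1 (10.05) and MKK2 (5.64). RHO1 was above 92.3% of tested ORF rows and MKK2 above 13.3%. Neighbours whose libraries overlapped in both groups were PKC1 and RLM1. WSC2 and MID2 overlapped in Asr1-RING and were apart in WT, as did WSC3 and MKK1. SLT2 and WSC3 were apart in both groups but in opposite order, with SLT2 above WSC3 in both Asr1-RING libraries and below it in both WT libraries. At the estimated depths the thinnest gene, MKK2, rested on about 292 and 339 fragments in Asr1-RING and 382 and 297 in WT, a counting error of at most 5.86% per library. For the other 9 genes that error was at most 3.46%.

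Positions below are those of the table, on the build sacCer2, and each of the 10 rows spans its gene's coding sequence. Among the sensors of this list, WSC2 lay below WT and MID2 above it, while WSC3 overlapped WT. WSC2 (YNL283C, chromosome XIV, 105184 to 106695), a partner of the main sensor Wsc1 with overlapping function, had 78.0 and 78.3 FPKM in Asr1-RING, against 104.2 and 98.9 FPKM in WT. Both Asr1-RING values were below both WT values and nearly equal to each other, with a mean 1.30-fold lower (log2 difference -0.37, 95% interval -0.59 to -0.15, limma adjusted p = 0.067). WSC3 (YOL105C, chromosome XV, 114138 to 115808) had 18.8 and 20.9 FPKM in Asr1-RING, against 20.2 and 21.0 FPKM in WT. Its groups overlapped, and the interval of its log2 difference, -0.30 to 0.20, leaves room for changes of that size in either direction (limma adjusted p = 0.779).

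MID2 (YLR332W, chromosome XII, 790676 to 791806), a sensor of its own family known from mating and wall stress, had 72.4 and 96.0 FPKM in Asr1-RING, against 61.4 and 58.7 FPKM in WT. The Asr1-RING values stood above both WT values, with a mean 1.40-fold higher (84.2 ± 16.7 and 60.03 ± 1.896 FPKM, SD, n = 2 each), and the difference did not pass (log2 difference 0.47, 95% interval 0.10 to 0.83, limma adjusted p = 0.121). The MID2 row shares 371 bp with JIP3, a row listed at 1.25 to 2.03 FPKM over the 4 libraries, and whether strand was used in counting is not given.

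RHO1 (YPR165W, chromosome XVI, 875364 to 875993) encodes the essential GTPase that activates Pkc1 and glucan synthase. It had 333.9 and 431.8 FPKM in Asr1-RING, against 243.3 and 271.3 FPKM in WT. All Asr1-RING values were above the WT values, and the mean was 1.49-fold higher (382.8 ± 69.3 and 257.3 ± 19.8 FPKM, SD, n = 2 each). The log2 difference was 0.56 (95% interval 0.20 to 0.93, limma adjusted p = 0.083). With the replicate number as a block, which the labels give no ground for, the RHO1 difference passed (limma adjusted p = 0.0446, with 3.44% of rows called higher).

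PKC1 and BCK1, the kinases directly below Rho1, had lower values in Asr1-RING. PKC1 (YBL105C, chromosome II, 14241 to 17696), the yeast protein kinase C, had 12.9 and 10.4 FPKM in Asr1-RING, against 15.6 and 13.7 FPKM in WT. The groups were separate, by less than the gap between libraries within either group (log2 difference -0.32, 95% interval -0.65 to 0.02, limma adjusted p = 0.206). BCK1 (YJL095W, chromosome X, 247249 to 251685), the kinase at the head of the MAP kinase cascade, had 8.77 and 7.94 FPKM in Asr1-RING, against 12.5 and 10.98 FPKM in WT. Here the gap between the groups was wider than that within either, with a mean 1.41-fold lower (log2 difference -0.44, 95% interval -0.73 to -0.16, limma adjusted p = 0.081).

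Composition differed between the groups. Rows of tRNA held 4.34% and 4.78% of summed FPKM in Asr1-RING, against 9.5% and 9.06% in WT. Small nucleolar and nuclear RNA rows held 45.2% and 44.3% in Asr1-RING, against 54.6% and 51.1% in WT. The effect of this on the calls was not tested. The outcome for WSC2 and BCK1 varied with scaling, among other choices. Both passed as lower when libraries were centred on a common median (limma adjusted p = 0.0409 for WSC2 and 0.0453 for BCK1, where 6.49% of all rows were called lower) and after quantile normalization (limma adjusted p = 0.0343 and 0.0458, 4.59% of rows called lower).

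In the middle of the cascade neither MKK1 nor MKK2 passed, and their intervals leave room for changes in either direction. MKK1 (YOR231W, chromosome XV, 772602 to 774128) had 19.8 and 20.6 FPKM in Asr1-RING, against 18.9 and 16.9 FPKM in WT, a log2 difference of 0.17 (95% interval -0.08 to 0.42, limma adjusted p = 0.343). MKK2 (YPL140C, chromosome XVI, 287513 to 289033) had 5.17 and 5.74 FPKM in Asr1-RING, against 6.12 and 5.52 FPKM in WT, and its groups overlapped (log2 difference -0.08, 95% interval -0.37 to 0.21, limma adjusted p = 0.702). MKK1 was the more abundant of the redundant pair in every library. Its level was 3.83 and 3.60 times that of MKK2 in Asr1-RING, against 3.08 and 3.07 times in WT. The ratio was thus higher in both mutant libraries, a log2 difference of 0.27 with an exact two-sided permutation p of 0.333, the smallest that 2 against 2 libraries allow. The row YOR231C-A lies inside MKK1 over 201 bp and is listed at 66.1 to 74.2 FPKM, so the share of MKK1's fragments that belongs to it is uncertain. For the sensor paralogs, WSC2 was at 4.14 and 3.75 times WSC3 in Asr1-RING, against 5.16 and 4.71 times in WT (log2 difference -0.32, exact two-sided permutation p = 0.333).

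SLT2 (YHR030C, chromosome VIII, 168883 to 170337), the MAP kinase of the pathway, had the highest log2 difference of the 10 genes and the widest spread. It had 24.2 and 43.1 FPKM in Asr1-RING, against 20.02 and 17.5 FPKM in WT. Both Asr1-RING values exceeded both WT values, but replicate 1 stood much closer to WT than to replicate 2. The mean was 1.80-fold higher (33.7 ± 13.3 and 18.8 ± 1.77 FPKM, SD, n = 2 each), with a log2 difference of 0.76 (95% interval 0.12 to 1.402) that did not pass (limma adjusted p = 0.140). The gap between the Asr1-RING libraries was 0.81 on the log2 scale, larger than for 99.1% of tested ORF rows. By root mean square distance of log2(FPKM + 1) over the 4 libraries, the ORF rows closest to SLT2 were HAP4 (distance 0.154), YLR194C (0.180) and DBP6 (0.201). HAP4 had 22.2 and 36.6 FPKM in Asr1-RING, against 17.8 and 17.3 FPKM in WT, and none of these 3 rows passed the test (limma adjusted p = 0.135, 0.193 and 0.250).

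**Figure D2:**
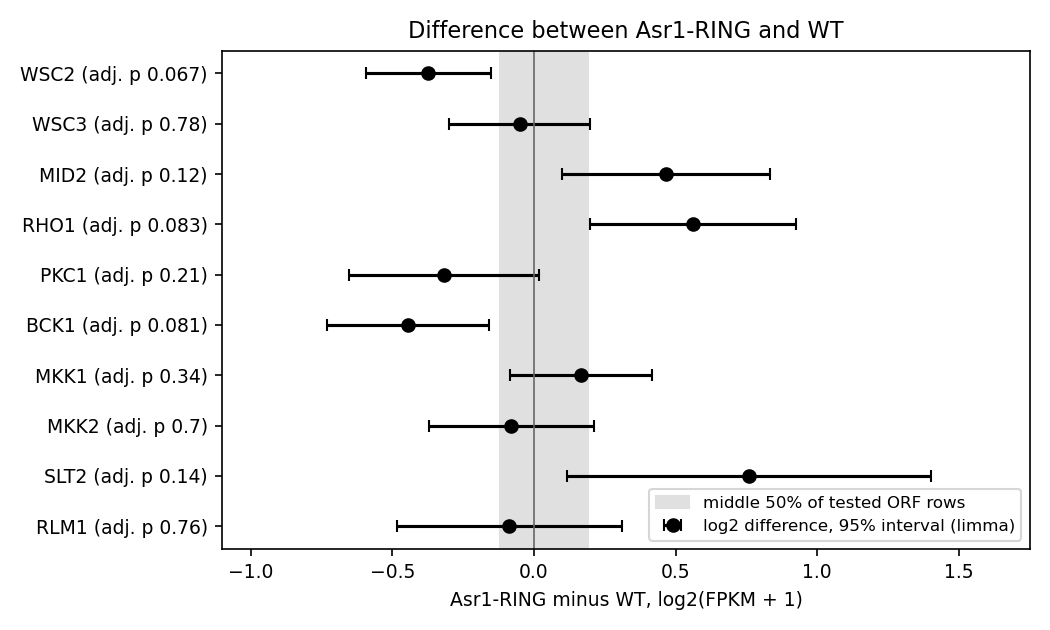
Difference between Asr1-RING and WT in log2(FPKM + 1) for each signalling gene, with limma's 95% interval and adjusted p. The grey band holds the middle 50% of tested ORF rows, from -0.12 to 0.19. SLT2, RHO1 and MID2 lie to its right and BCK1, WSC2 and PKC1 to its left.

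Replicate 2 set much of the size of the higher values in Asr1-RING. Against the WT mean, SLT2 differed by 0.36 in Asr1-RING replicate 1 alone and by 1.16 in replicate 2 alone. RHO1 differed by 0.38 and 0.75, and MID2 by 0.27 and 0.67. With Asr1-RING replicate 1 left out, 5 genes passed, SLT2 (limma adjusted p = 0.00199), MID2 (0.00759) and RHO1 (0.00779) as higher and BCK1 (0.0413) and WSC2 (0.048) as lower. In that fit 11.3% of all rows were called higher and 8.02% lower, and the lone mutant library is assumed to vary like the WT libraries. None of the 10 passed with any of the other 3 libraries left out. The highest of the 4 libraries was Asr1-RING replicate 2 for 5 of the 10 genes, beside 34.3% of tested ORF rows.

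**Figure D3:**
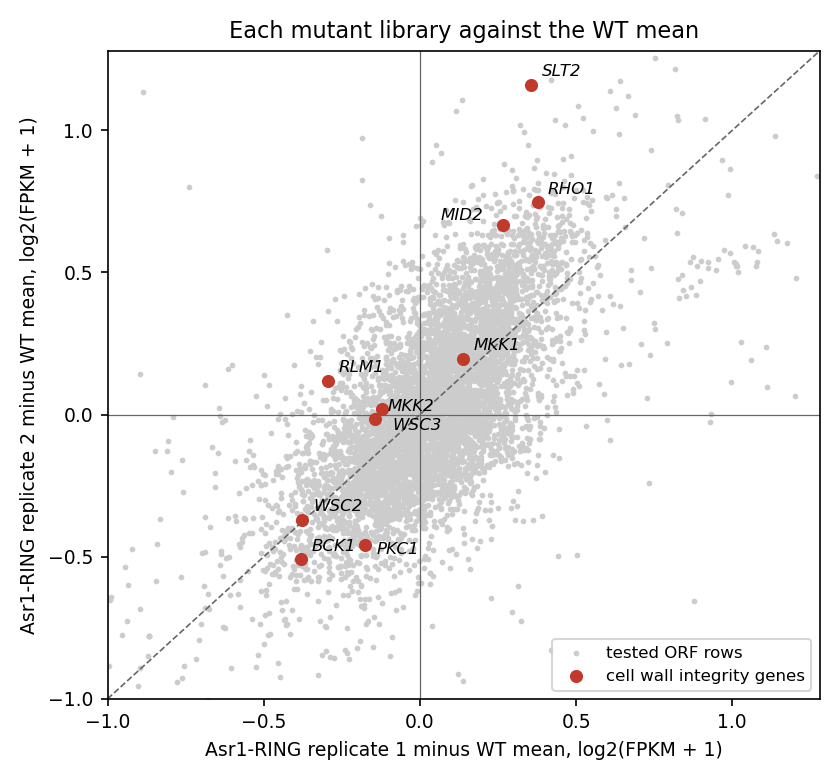
Difference of Asr1-RING replicate 1 (horizontal) and replicate 2 (vertical) from the WT mean in log2(FPKM + 1). Grey points are tested ORF rows, of which 74 of 6517 fall outside the axes, red points the signalling genes, and the dashed line equality. SLT2, MID2 and RHO1 lie above the line and WSC2 lies on it.

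RLM1 (YPL089C, chromosome XVI, 379117 to 381147), the MADS-box factor at the end of the pathway, had 10.7 and 14.5 FPKM in Asr1-RING, against 14.1 and 12.5 FPKM in WT. One Asr1-RING library was the lowest of the 4 and the other the highest (log2 difference -0.09, 95% interval -0.49 to 0.31, limma adjusted p = 0.761). Rlm1 is known to bind the palindrome CTANNNNTAG with A or T at each N, and this motif was searched on both strands in the 500 bases before the start codon, read by gene identifier from RefSeq's R64 genome and annotation. It was present for 3 of the 10 signalling genes, BCK1, MKK1 and RLM1, beside 1.81% of 6006 such windows. The matches before these 3 genes are shown because Rlm1 is the pathway's own factor. Each is written 5′ to 3′ on the gene's strand with the motif in capitals.
BCK1, 38 to 29 bases before the start codon: gtacgaaacaCTAAATATAGtattaaaata
MKK1, 433 to 424 bases before: atgcttttaaCTATTATTAGtttttctcac
RLM1, 308 to 299 bases before: gagatgaaagCTAATAATAGaaacagctcg

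A match is a description of the sequence. Of the signalling genes that hold it, BCK1 was lower in both Asr1-RING libraries, MKK1 higher in both, and RLM1 overlapped WT. Over the whole genome 109 windows held the motif, and 105 of these genes were tested. Of these 105, 1 rose and 2 fell by limma's test, where 2.87% of ORF rows were called in either direction. Their median log2 difference was -0.01, beside 0.03 over tested ORF rows. The motif ACGCGT, bound by the cell cycle factor MBF and also a palindrome, was found before RHO1, BCK1 and MKK2, beside 5.43% of windows. CACGAAA, bound by the Slt2 target SBF, was found before 0 of the 10, beside 7.14% of windows. These motifs do not overlap the Rlm1 matches in the windows printed.

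Genes that Rlm1 and wall stress are known to induce gave 1 call. Of 18 listed genes 1 rose, 0 fell and 17 did not pass, where 2.87% of ORF rows were called in either direction. At an unadjusted p under 0.05 there were 3, beside 23.0% of ORF rows. The median log2 difference was 0.03, beside 0.02 over all tested rows. The Rlm1 motif was found before 7 of the 18, and the called gene was not among them. The call was PRM5 (YIL117C, chromosome IX, 140610 to 141566), a membrane protein gene induced on wall stress, with 34.7 and 50.6 FPKM in Asr1-RING, against 22.6 and 22.3 FPKM in WT. Both Asr1-RING values were above WT and again replicate 2 was the higher, with a 1.90-fold higher mean (log2 difference 0.87, SE 0.180, limma adjusted p = 0.0485). This call ended without WT replicate 1 (limma adjusted p = 0.283) or WT replicate 2 (0.224), with ORF rows tested alone (0.0652) and in 6 other alternatives. After quantile normalization PRM5 did not pass and 4 others of the list did, PIR1, HSP150, SED1 and BGL2, all as higher, although the log2 differences of SED1 and BGL2 were -0.04 and -0.05 without that scaling. FKS1, the main glucan synthase subunit, had 482.2 and 486.6 FPKM in Asr1-RING, against 495.6 and 485.5 FPKM in WT. KDX1, the Slt2-like pseudokinase and a known marker of pathway output, had 4.35 and 5.86 FPKM in Asr1-RING, against 5.57 and 4.99 FPKM in WT, and its groups overlapped.

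Other sensors gave 0 calls of 3, with 2 at an unadjusted p under 0.05 in limma's test, beside 23.0% of ORF rows. SLG1, the main sensor Wsc1, had 54.7 and 69.2 FPKM in Asr1-RING, against 45.3 and 46.5 FPKM in WT (log2 difference 0.42, limma adjusted p = 0.121). MTL1, the paralog of MID2, had 5.19 and 6.54 FPKM in Asr1-RING, against 4.18 and 4.01 FPKM in WT (log2 difference 0.42, limma adjusted p = 0.127). For both, as for MID2, both mutant libraries were above WT, as in 33.0% of all tested rows. Replicate 2 was the highest, as in 34.3% of tested ORF rows. Without Asr1-RING replicate 1 the log2 difference was 0.58 for SLG1 and 0.57 for MTL1. Without Asr1-RING replicate 2 it was 0.25 for SLG1 and 0.28 for MTL1. The third, WSC4, overlapped between the groups.

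Regulators of Rho1, its exchange factors, GTPase-activating proteins and inhibitor, gave 0 calls of 8 and 0 at an unadjusted p under 0.05. Their log2 differences lay between -0.21 and 0.19. The 2 with the smallest p were the GTPase-activating proteins BAG7 (log2 difference -0.21, limma adjusted p = 0.304) and LRG1 (log2 difference 0.19, limma adjusted p = 0.338).

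Kinases, phosphatases and scaffolds that act on Pkc1 or Slt2 gave 0 calls of 11. At an unadjusted p under 0.05 there were 3, beside 23.0% of ORF rows. PTC1, a type 2C phosphatase of the MAP kinase pathways, had 30.3 and 30.3 FPKM in Asr1-RING, against 24.8 and 23.6 FPKM in WT (log2 difference 0.31, limma adjusted p = 0.102). SPA2, a scaffold of polarized growth that holds Mkk1 and Slt2, had 9.19 and 5.72 FPKM in Asr1-RING, against 14.2 and 11.6 FPKM in WT (log2 difference -0.74, limma adjusted p = 0.105). PTP2, the tyrosine phosphatase that acts on Slt2 and Hog1, had 10.5 and 16.4 FPKM in Asr1-RING, against 8.02 and 8.02 FPKM in WT (log2 difference 0.65, limma adjusted p = 0.118). The mutant values were apart from WT in all 3, but these are the genes of the list under an unadjusted p of 0.05, a choice that favours separate groups. Over the 11 listed genes, 5 were above both WT libraries, 5 were below both and 1 overlapped WT. Among ORF rows 58.5% did not overlap. In PTP2 replicate 2 was again the higher. Without Asr1-RING replicate 1 the log2 difference was -1.04 for SPA2 and 0.95 for PTP2. Without Asr1-RING replicate 2 it was -0.44 for SPA2 and 0.34 for PTP2. SPA2 passed as lower with the replicate block (limma adjusted p = 0.0402).

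Partners and outputs of Slt2 other than Rlm1 gave 0 calls of 6. In limma's test 1 was at an unadjusted p under 0.05, beside 23.0% of ORF rows. SWI4, the DNA-binding subunit of SBF, had 5.81 and 4.51 FPKM in Asr1-RING, against 9.19 and 8.11 FPKM in WT, a 1.68-fold lower mean (log2 difference -0.65, SE 0.144, limma adjusted p = 0.057). SWI4 passed as lower in 6 of 15 alternatives, median centring (limma adjusted p = 0.0407) and quantile normalization (0.0402) among them. CCH1, a calcium channel subunit, was next by p (log2 difference -0.20, limma adjusted p = 0.247).

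**Figure D4:**
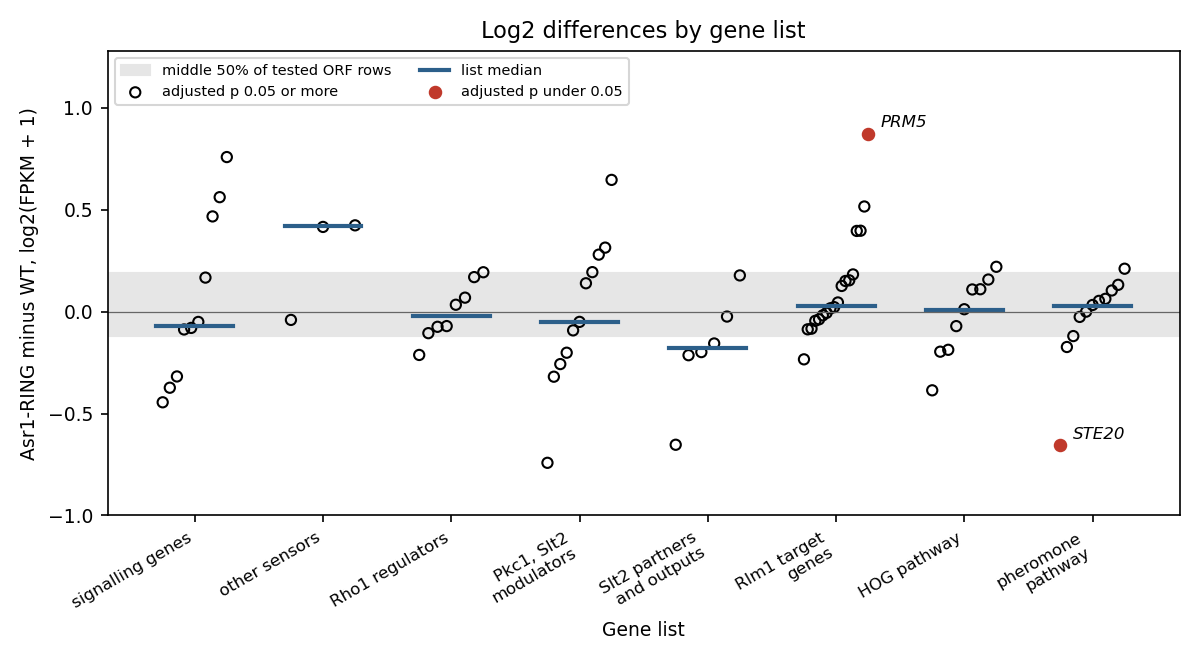
Log2 difference of Asr1-RING minus WT for the genes of each list, with filled points for adjusted p under 0.05 (PRM5 and STE20) and blue bars for list medians. The grey band holds the middle 50% of tested ORF rows, -0.12 to 0.19. The list medians lie between -0.18 and 0.42.

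The other MAP kinase pathways were set beside these genes for scale, as lists written to share no gene, so each count depends on that assignment. Of the 9 genes listed for the HOG pathway, which answers high osmolarity, 0 were called, with a median log2 difference of 0.01. At an unadjusted p under 0.05 there was 1, beside 23.0% of ORF rows. OPY2, a membrane anchor of that pathway, had the smallest p (log2 difference -0.39, limma adjusted p = 0.103, and 0.0335 without Asr1-RING replicate 1), followed by the osmosensor SHO1 (log2 difference -0.19, limma adjusted p = 0.262). In the pheromone pathway, with a median log2 difference of 0.03, 1 of 11 fell, where 2.87% of ORF rows were called in either direction. This was STE20 (YHL007C), the PAK-family kinase at the head of that cascade, with 10.1 and 10.5 FPKM in Asr1-RING, against 17.8 and 15.7 FPKM in WT (log2 difference -0.65, SE 0.107, limma adjusted p = 0.0229). The STE20 row overlaps 1 other row, and its call ended without WT replicate 1 (limma adjusted p = 0.247), without WT replicate 2 (0.102), with no filter, with ORF rows tested alone and with length removed. The median absolute log2 difference was 0.16 in the HOG list and 0.10 in the pheromone list, beside 0.35 in the 10 signalling genes. In the other lists of the cell wall integrity pathway it was 0.42 for other sensors and 0.26 for modulators of Pkc1 and Slt2. It was 0.19 for partners of Slt2, 0.11 for Rlm1 target genes and 0.09 for regulators of Rho1. No test of these differences was made, and the genes and lists were chosen with earlier results of these data known.

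Row length moved with the differences among the 10 genes. The longest, BCK1 (4437 bp) and PKC1 (3456 bp), had lower means in Asr1-RING, and the shortest, RHO1 (630 bp) and MID2 (1131 bp), had higher ones. Spearman's rho between length and log2 difference was -0.75 across these 10 genes, which share the same 4 libraries and are not independent replicates. Across 6517 tested ORF rows it was 0.056, and the median log2 difference was 0.02 up to 1000 bp, -0.02 from 3000 to 4000 bp and 0.06 above 4000 bp. Length also moved with the gap between the Asr1-RING libraries, replicate 2 minus replicate 1. Spearman's rho was -0.55 across the 10 genes and 0.013 across tested ORF rows. The cause of either relation was not tested. With each library's trend on length removed, an alternative chosen after seeing the data, 0 of the 10 genes passed and each of the 10 kept the sign of its difference.

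**Figure D5:**
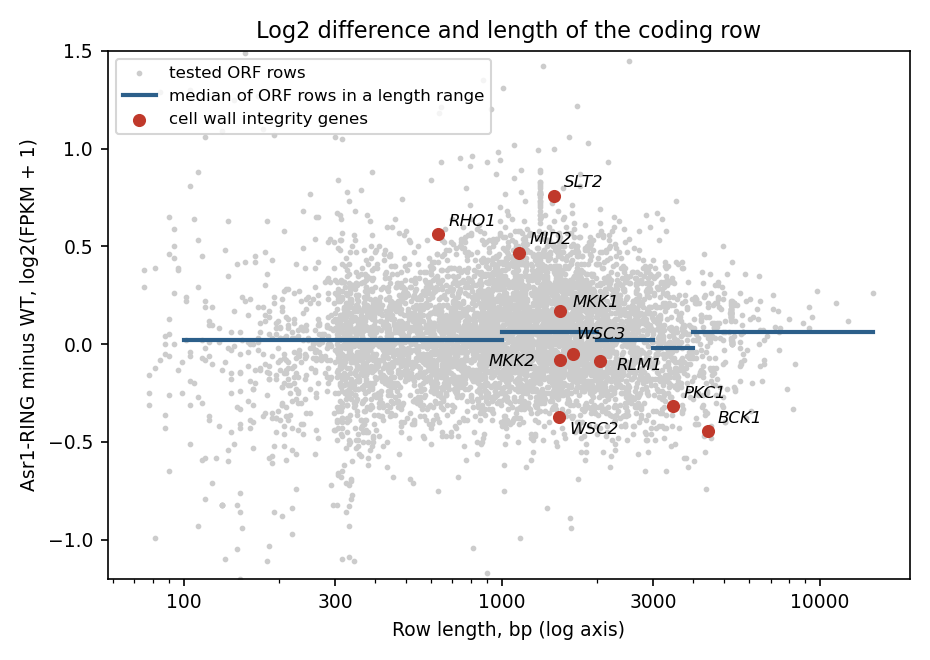
Log2 difference of Asr1-RING minus WT against row length (bp, log axis). Grey points are tested ORF rows, of which 27 of 6517 fall outside the axes, blue bars their median in 5 length ranges, and red points the signalling genes. The red points run from RHO1 at 630 bp and 0.56 to BCK1 at 4437 bp and -0.44, while the blue bars stay between -0.02 and 0.06.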

How the data were processed

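Per the labels' protocols, hot acid phenol RNA was DNase-treated, rRNA-depleted and made into Illumina libraries. One table was deposited by the authors, with 1 FPKM column per library, and 0 value columns were left unused. TopHat2, Cufflinks and the build sacCer2 are named per the submitters' processing notes; the sources used here give no versions, settings, annotation or strand handling. Coordinates are those of the table with 1 added to the start, since end minus start was a multiple of 3 for 96.6% of ORF rows. R64 served only for upstream sequence, and the 10 genes span the same length in both.

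Groups came from sample titles. Values were analysed as log2(FPKM + 1) over the 6892 rows whose mean reached 1 FPKM, a filter all 10 genes passed, with limma 3.58.1 (R 4.3.3; with an intensity trend; degrees of freedom 2 residual, 3.71 prior). The added 1 shrinks log2 differences of low rows; folds are ratios of mean FPKM. Named genes were the 10, each list's called genes or otherwise its 2 smallest p, and the 3 ORF rows closest to SLT2; JIP3, YOR231C-A, FKS1, KDX1, WSC4, PTP2, PIR1, HSP150, SED1 and BGL2 were named after their values were seen, and the motifs were chosen after the files were seen. The genes and lists were chosen with earlier results of these data known.

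Depth was the value at which FPKM of low ORF rows of 350 to 3000 bp, less 202 bp, became whole fragments (0.5 to 8.5, within 0.1) for 85.9% to 90.2% of 51 to 64 rows; 3 fragments on 1 kb are 0.079 to 0.092 FPKM, counting error only. On simulated data for this comparison (6892 rows, 200 changed, 5 runs) limma recovered 40.9% of 1.5-fold, 89.9% of 2-fold and 99.4% of 4-fold changes, with 5.85% of calls false. Alternatives tried were median centring, quantile normalization, a pseudocount of 0.1 or 5, a minimum mean of 10 FPKM or none, ORF rows alone, no trend, robust moderation, the replicate block, each library left out, an adjusted p under 0.1, and the length trend. Other software was Python 3.11.15, scipy 1.17.1, pandas 2.3.3, matplotlib 3.10.9 and numpy 2.4.6.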

Additional observations from a re-analysis of the deposited data

How the results depend on the processing

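Of 159 values of the 10 log2 differences under the alternatives, 144 kept their direction and their side of the threshold, 13 kept direction and came under it, and 2 changed sign (MKK2 has no value at a minimum mean of 10 FPKM). Those were WSC3 and RLM1 without Asr1-RING replicate 1 (0.02 and 0.12), with ranges of -0.12 to 0.02 and -0.29 to 0.12 over the libraries left out. The filter settings, ORF rows alone, no trend, robust moderation, the replicate block and the looser threshold leave each log2 difference unchanged by construction. Under these the direction could not change. Nor can leaving out 1 library reverse a gene whose groups do not overlap. Of the 10 genes, 2 were called lower with median centring and 2 with quantile normalization. At an adjusted p under 0.1 there were 1 higher and 2 lower (RHO1, WSC2 and BCK1). With libraries left out the counts were 0 to 3 higher and 0 to 2 lower. The labels give no pairing. Same-numbered libraries deviated together with r = -0.071, and with the replicate block 1 gene was higher (RHO1), with 4 calls among the other pathway lists and 237 rows higher over the table. Among the 66 genes of those lists the count of calls, 2, was 0 with ORF rows alone, with length removed and with no filter, 1 with no trend or a pseudocount of 5, 7 with quantile normalization, 4 at an adjusted p under 0.1 and 0 to 11 with libraries left out. Over all rows, 130 were higher and 341 lower. Higher calls were 36 with ORF rows alone, 13 with length removed, 216 at a mean of 10 FPKM, 70 with median centring, 21 with no filter, 307 with quantile normalization, 256 with robust moderation and 449 at an adjusted p under 0.1, and 16 to 781 with libraries left out. Lower calls were 23 with ORF rows alone, 10 with length removed, 182 with no filter and 197 to 553 with libraries left out. The fits on ORF rows leave out the rows outside ORFs, which held most lower calls of the main fit (60 of 341 were ORF rows). The left-out fits use fewer libraries, and their counts moved both up and down. The causes of these changes were not tested. The paralog ratios kept their direction in all 6 alternatives run for each. For both pairs the ratios of the groups did not overlap, so leaving out 1 library could not reverse them. With 2 libraries a group, changes near 1.5-fold were mostly missed on simulated data (40.9% recovered), so the absence of a call does not show equal levels.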
